A study of Mus musculus with 4 samples.

Results

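The immediate early transcription factor genes Egr1, Egr2, Egr3, Nr4a1, Nr4a2 and Nr4a3 were followed in CD8 T cells from mouse spleen. Female C57BL/6 mice, 8 to 12 weeks old, had received TCDD at 10 µg/kg or DMSO by intraperitoneal injection and were killed 24 h later. TCDD is a dioxin that activates the aryl hydrocarbon receptor (AHR), and DMSO is its solvent. Cells were FACS sorted to the CD8 T cell fraction, and RNA was amplified and hybridised to Affymetrix arrays, with 2 arrays from TCDD-treated mice and 2 from DMSO-treated mice, each pair titled with the numbers 1 and 2. Per the design text 4 mice made up a group and their cells were pooled, and nothing says that the 2 arrays of a treatment hold RNA from different pools. The p-values then measure only array-to-array spread, which may be technical. The labels give no meaning to the numbers beyond the title. The members were the 6 genes of 12393 named genes, and 9 of 22626 probe sets mapped to exactly 1 of them. A gene's main probe set is the one of its own probe sets that averaged highest across the 4 arrays. Values are log2 RMA expression values, which have no true zero, and a difference of 1 is a 2-fold difference in signal. The median probe set had a mean of 6.01, and the main probe sets of 5 of the 6 genes lay above it, while Nr4a2 lay below.

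EGR proteins are zinc finger transcription factors, and NR4A proteins are orphan nuclear receptors that bind DNA without a known natural ligand. Both families are switched on within a short time of antigen receptor signalling, through calcium and MAP kinase pathways acting on SRF with its ETS partners, on CREB and on MEF2. In T cells Egr1 is among the earliest of these genes, Egr2 and Egr3 are known for restraining activation and supporting tolerance, and Nr4a1, which encodes Nur77, is widely used as a reporter of T cell receptor signal strength. Nr4a2 (Nurr1) and Nr4a3 (Nor1) overlap with Nr4a1 in function, in regulatory T cells and in chronically stimulated CD8 T cells. The same immediate early genes can be induced by tissue dissociation and cell sorting.

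The promoter sequences show the elements through which these genes are known to respond to such signals. They are the 250 bases before the start of transcription, from RefSeq on GRCm38.p6, and a window was used for 4 of the 6 members, Egr2, Nr4a1, Nr4a2 and Nr4a3. Capitals mark the CREB element core TGACG, or CGTCA on the other strand, and the CArG box, the binding sequence of SRF. All 4 are shown, and their signals played no part in that choice. The signals of Egr2, Nr4a1 and Nr4a2 differed between the numbered arrays, and that of Nr4a3 hardly differed. For Egr2, with 5 windows, the middle of 3 overlapping ones is printed.
Egr2, chr10:67537620-67537869, plus strand: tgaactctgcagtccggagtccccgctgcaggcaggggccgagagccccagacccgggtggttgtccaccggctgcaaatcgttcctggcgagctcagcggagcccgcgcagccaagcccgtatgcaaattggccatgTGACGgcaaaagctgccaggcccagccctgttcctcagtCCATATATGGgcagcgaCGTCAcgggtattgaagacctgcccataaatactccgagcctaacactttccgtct
Nr4a1, chr15:101266596-101266845, plus strand: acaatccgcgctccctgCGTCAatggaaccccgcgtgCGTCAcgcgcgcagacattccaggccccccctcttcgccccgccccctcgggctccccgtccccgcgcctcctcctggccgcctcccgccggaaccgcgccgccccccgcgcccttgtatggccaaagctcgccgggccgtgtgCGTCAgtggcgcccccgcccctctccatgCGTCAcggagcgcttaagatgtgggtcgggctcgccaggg
Nr4a2, chr2:57124004-57124253, minus strand: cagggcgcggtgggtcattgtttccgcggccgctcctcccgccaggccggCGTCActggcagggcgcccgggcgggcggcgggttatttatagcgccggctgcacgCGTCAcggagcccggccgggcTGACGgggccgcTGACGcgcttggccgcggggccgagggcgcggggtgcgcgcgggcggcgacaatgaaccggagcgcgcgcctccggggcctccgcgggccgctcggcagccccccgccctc
Nr4a3, chr4:48045055-48045304, plus strand: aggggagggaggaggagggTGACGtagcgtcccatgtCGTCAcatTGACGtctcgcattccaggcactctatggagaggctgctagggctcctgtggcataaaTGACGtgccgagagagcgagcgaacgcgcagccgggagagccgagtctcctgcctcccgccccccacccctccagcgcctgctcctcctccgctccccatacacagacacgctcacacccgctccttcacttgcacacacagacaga

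Nr4a1, Nr4a2 and Nr4a3 each held 4 CREB cores in this window, and the printed Egr2 window held 2 together with 1 CArG box. Not all Egr2 windows did. The one starting at base 67535249 held 0 CREB cores and 0 CArG boxes. The one starting at base 67537316 held 0 CREB cores and 1 CArG box of other letters. Of all 32851 promoter windows of this length, 17.77% held the core at least once and 0.688% held it 3 times or more. The CArG box stood in 1.47% of windows. None of the 4 printed windows held the full palindrome TGACGTCA, present in 1.55% of all windows. The AHR core GCGTG, or CACGC on the other strand, was found 2 times in the Nr4a1 window, 1 time each in those of Nr4a2 and Nr4a3, and not in that of Egr2, against 28.16% of all windows with at least 1. In the Nr4a1 and Nr4a2 windows 1 AHR core each shares bases with a CREB core. The EGR binding sequence GCGNGGGCG, searched on both strands, was found 1 time each for Nr4a1 and Nr4a2 (4.70% of all windows), and it contains the AHR core where N is T. The NR4A monomer site AAAGGTCA was in none of the 4 (1.34% of all windows). The G and C content of the printed windows was 61.2%, 74.4%, 80.0% and 63.6% in the order shown, against a median of 52.4% over all windows. The shares over all windows were not matched for G and C content. These are matches of letters and carry no measure of binding.

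**Figure D1:**
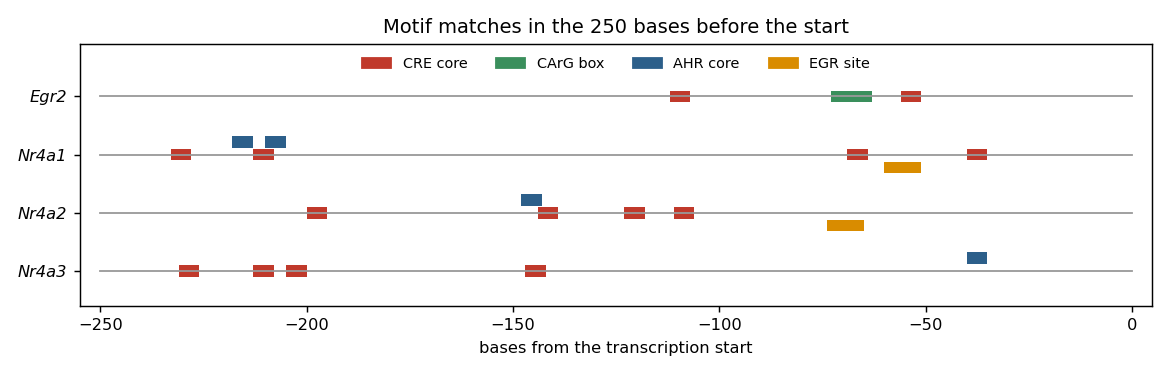
Motif matches in the printed promoter windows, by distance in bases from the transcription start. Red blocks are CREB (CRE) cores, the green block is the CArG box, blue blocks are AHR cores and orange blocks are EGR sites. The 3 Nr4a genes have 4 CREB cores each, and the Egr2 window has 2 beside its CArG box.

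Egr1 had the clearest separation by number among the EGR genes and measured lower with TCDD within each number. Replicates 1 and 2 of TCDD read 11.03 and 9.82, and replicates 1 and 2 of DMSO read 12.21 and 10.56, and replicate 1 stands before replicate 2 in what follows. Both arrays numbered 1 lay above both numbered 2, and the treatments overlapped because TCDD replicate 1 exceeded DMSO replicate 2. The treatment means were 10.43 ± 0.856 with TCDD and 11.39 ± 1.17 with DMSO (SD, n = 2 each), a difference of −0.96 with 95% limits of −2.72 and 0.80. It did not pass the limma test (adjusted p = 0.9973), and leaving out single arrays gave values from −1.79 to −0.14. With 1 array left out, the numbers are unequal between the treatments, so part of the gap by number enters such values. By size alone, without regard to spread, 39 of 22626 probe sets had a greater treatment difference. For the difference of Egr1 by number that count was 72. In these bulk samples, fewer cells that express a gene and less of its RNA per cell cannot be told apart.

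Egr2 followed the same order of arrays over a smaller range. Its main probe set read 7.12 and 6.52 with TCDD and 7.41 and 6.97 with DMSO. The other probe set read 6.91 and 6.35 with TCDD and 7.11 and 6.77 with DMSO. In both probe sets DMSO replicate 1 was highest and TCDD replicate 2 lowest, and the treatments overlapped. The treatment difference was −0.37 (95% limits −1.05 and 0.31) by the main probe set and −0.31 by the other, without passing limma (adjusted p = 0.9973 for both).

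Egr3 showed neither pattern. TCDD arrays read 7.27 and 7.58, and DMSO arrays 7.29 and 7.17. The difference was 0.195 (limits −0.19 and 0.58, limma adjusted p = 0.9973). Groups overlapped by treatment and by number. The interval leaves room for a TCDD signal between 0.878 and 1.493 times that of DMSO.

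Nr4a1 was highest in DMSO replicate 1, and its treatment difference lay almost wholly between the arrays numbered 1. TCDD arrays read 9.47 and 8.75, and DMSO arrays 10.88 and 8.83. TCDD replicate 1 was 1.41 below DMSO replicate 1, whereas TCDD replicate 2 was 0.08 below DMSO replicate 2. The difference between these 2 values was not tested, since 1 array stands behind each. The mean difference of −0.745 had limits of −2.61 and 1.12 (limma adjusted p = 0.9973) and turned to 0.28 without DMSO replicate 1. That last value takes in part of the gap by number.

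Nr4a2 was the member with the widest gap between the numbers. Its main probe set read 7.06 and 4.84 with TCDD and 6.60 and 4.59 with DMSO. The arrays numbered 2 were far below the median level of 6.01 for both treatments, where RMA values compress differences and do not separate weak expression from none. The treatment difference was 0.355, with limits of −2.20 and 2.91 (limma adjusted p = 0.9973). Unlike Egr1, Egr2 and Nr4a1, the TCDD array was the higher one within each number, by 0.46 and 0.25. The value turned to −0.755 without TCDD replicate 1 and to −0.65 without DMSO replicate 2. Both of these take in part of the gap by number, since the treatments then no longer hold the numbers equally. The other Nr4a2 probe set did not follow the main one: it stayed between 5.24 and 5.45 on all arrays and differed by 0.14 between treatments and 0.07 between numbers.

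Nr4a3 varied least of the 6 main probe sets. TCDD arrays read 7.17 and 7.36, and DMSO arrays 7.18 and 7.21, which differ by 0.07 (limits −0.24 and 0.38, limma adjusted p = 0.9973). Its other probe set, well below the median level, read 4.98 and 4.87 with TCDD and 5.0 on both DMSO arrays. Over the 4 arrays the main probe set spanned 0.19, against 0.41 for Egr3, 0.89 for Egr2, 2.13 for Nr4a1, 2.39 for Egr1 and 2.47 for Nr4a2. Among erythroid markers Epor and Ank1 averaged 7.48 and 7.94, above Egr3 and Nr4a3 at 7.33 and 7.23. The erythroid list as a whole had mean levels from 6.51 to 6.64. Whether flat values such as those of Egr3 and Nr4a3 are expression or background was not tested.

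**Figure D2:**
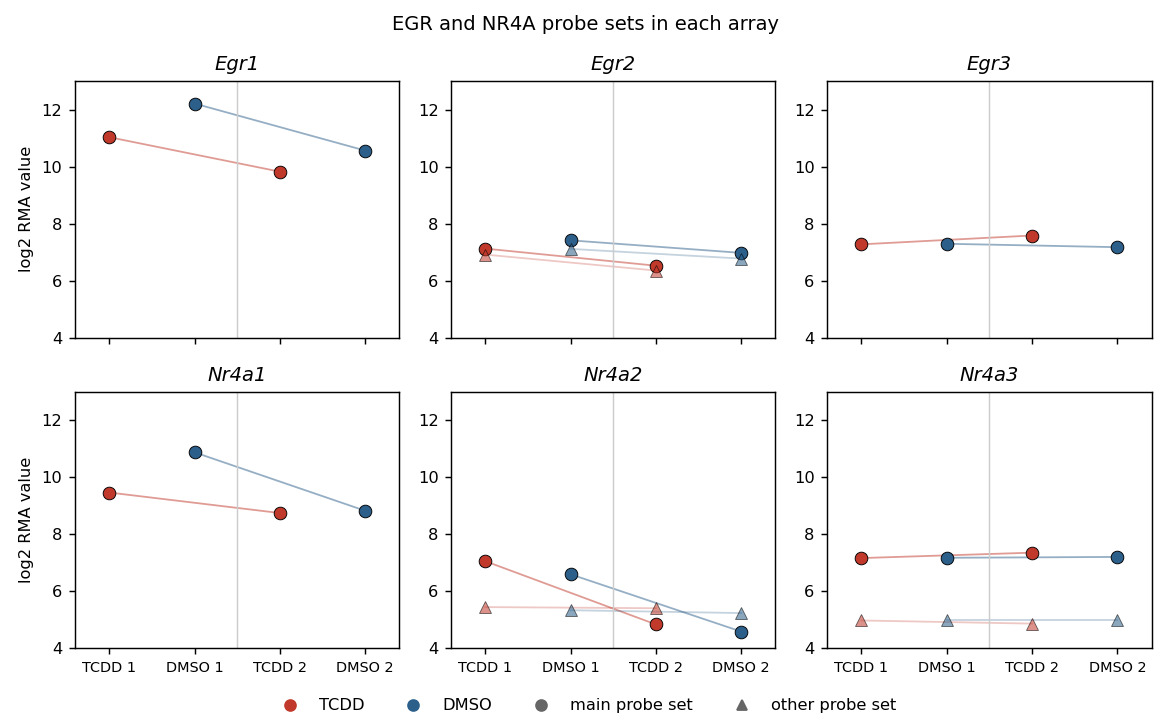
Log2 RMA value of every EGR and NR4A probe set in each array, with TCDD arrays in red and DMSO arrays in blue; circles are main probe sets, triangles other probe sets, and lines join the arrays of a treatment. Egr1, Egr2, Nr4a1 and the main Nr4a2 probe set lie higher on the left, in the arrays numbered 1, while Egr3 and Nr4a3 are nearly flat.

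In the treatment comparison these genes were set against the whole array. The limma test called 0 of the 6 members and 0 of 22626 probe sets, a background of 0%. At an unadjusted p under 0.05, in this fit without a block, there were 0 members, against 2.11% of all genes. Treatments were fully separate for 0 of the 6 main probe sets, while 24.9% of all genes had treatments that did not overlap. That count carries little weight, since a gene whose arrays separate by number must overlap by treatment. Egr1, Egr2, Nr4a1, Nr4a2 and Nr4a3 separated by number. The members' median difference was −0.15, with 3 members above and 3 below 0, and over all genes the median was 0.01. Among the weaker probe sets, that of Nr4a2 was higher and that of Nr4a3 lower in both TCDD arrays.

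The comparison of the arrays numbered 1 with those numbered 2 separated 5 of the 6 members. Egr1, Egr2, Nr4a1 and Nr4a2 were higher in both arrays numbered 1, a pattern that 14.0% of all genes showed. Nr4a3 was lower in both by a small amount, as were 22.4% of all genes, and Egr3 overlapped. The limma test called 0 members and 1 gene in all, a background of 0.00807%. At an unadjusted p under 0.05 there were 4 members, the same 4 that lay higher, and 7.53% of all genes.

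Nr4a2 had the greatest difference by number, at 6.83 ± 0.325 in the arrays numbered 1 and 4.72 ± 0.177 in those numbered 2 (SD, n = 2 each). The difference of 2.115 had limits of 1.61 and 2.62, and it rests on arrays numbered 2 below the median level. As the mean of both Nr4a2 probe sets it was 1.09. Its unadjusted limma p was 0.000154 and its adjusted p was 0.1677, and a fit with a variance trend and robust estimation gave an adjusted p of 0.03866, with values from 0.03866 to 0.9968 over 10 settings. The gap was 2.22 within TCDD and 2.01 within DMSO.

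Egr1 and Nr4a1 differed by similar amounts between the numbers, and neither passed the limma test. Egr1 measured 11.62 ± 0.834 in the arrays numbered 1 and 10.19 ± 0.523 in those numbered 2 (n = 2 each), a difference of 1.43 (95% limits 0.22 and 2.64, adjusted p = 0.617). The gap was 1.21 within TCDD and 1.65 within DMSO. Nr4a1 measured 10.18 ± 0.997 in the arrays numbered 1 and 8.79 ± 0.057 in those numbered 2, a difference of 1.385 (limits 0.16 and 2.61, adjusted p = 0.635). Its gap was 0.72 within TCDD and 2.05 within DMSO.

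Egr2 differed by 0.52 between the numbers (limits 0.01 and 1.03, limma adjusted p = 0.6641) and by 0.45 in its other probe set. Egr3 differed by −0.095 (limits −0.52 and 0.33) and Nr4a3 by −0.11 (limits −0.38 and 0.16). Within both families the members measured apart from each other: 2 of 3 EGR genes and 2 of 3 NR4A genes were higher in the arrays numbered 1.

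**Figure D3:**
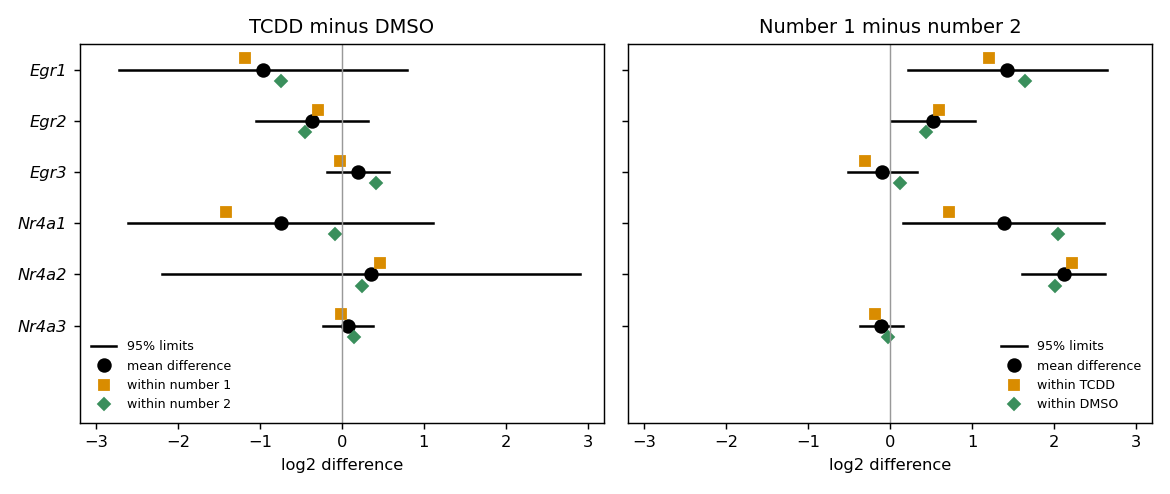
Log2 differences of the 6 main probe sets, TCDD minus DMSO on the left and number 1 minus number 2 on the right, with black points for the mean difference and bars for the 95% limits of the limma fit. Coloured symbols are single pairs of arrays. All 6 intervals include 0 on the left, and those of Egr1, Egr2, Nr4a1 and Nr4a2 lie above 0 on the right before adjustment over all probe sets.

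Signs of RNA quality and markers of other cells also differed between the numbers, and their part in these differences was not tested. The counts of markers that follow stand beside 14.0% of all genes higher and 22.4% lower in both arrays numbered 1. The log2 signal of the 3′ minus the 5′ control probe set of Gapdh was 5.35 and 5.27 in TCDD and DMSO replicate 1, and 4.56 and 4.30 in TCDD and DMSO replicate 2. For beta-actin it was 3.61 and 3.69 in the arrays numbered 1, and 3.34 and 3.52 in those numbered 2. Of 11 measured B cell markers, 3 were higher in both arrays numbered 1, the class II antigen presentation genes Cd74 (1.49), H2-Eb1 (1.24) and H2-Aa (1.16), and 4 were lower, with a list median of −0.05, a mean of 0.243 and mean levels of 7.0 and 7.03 in the arrays numbered 1 and 6.95 and 6.60 in those numbered 2. Of 10 dendritic cell markers 3 were higher and 1 lower, with mean levels of 6.74 and 6.66 in the arrays numbered 1 and 6.43 and 6.13 in those numbered 2. Monocyte and macrophage markers went the other way, with 8 of 15 lower and 1 higher, as did neutrophil markers, with 7 of 10 lower. The calprotectin genes S100a8 and S100a9 were highest in DMSO replicate 2, at 8.67 and 7.80, and lay between 5.45 and 5.94 and between 4.61 and 5.63 on the other arrays. NK cell and erythroid markers had medians of −0.105 and −0.11, and CD4 T cell markers a median of −0.05 and a mean of 0.495. The last mean was raised by Ctla4 (2.725), while 3 of the 5 CD4 T cell markers were below 0, among them Cd4 at −0.225. The CD8 T cell markers, present on all arrays at mean levels of 8.99 and 9.37 in the arrays numbered 1 and 9.35 and 9.45 in those numbered 2, had 3 of 10 lower and 0 higher.

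Between treatments, 4 of 10 CD8 T cell markers were lower in both TCDD arrays and 0 higher, against 12.0% and 12.9% of all genes, 6 overlapped and limma called 0. The list median was −0.12 and ran from −0.38 to −0.015 as single arrays were left out, and its mean level was 8.99 and 9.35 with TCDD against 9.37 and 9.45 with DMSO. B cell, monocyte, NK cell and erythroid lists had treatment medians between −0.04 and 0.01, although the B cell mean was 0.161. Over the B cell markers above the median level the median was 0.435 by treatment and 0.587 by number. Neutrophil markers had a treatment median of −0.095 and a mean of −0.267, and the median ran from −0.38 to 0.14 as single arrays were left out. CD4 T cell markers had 0.06. Dendritic cell markers had 0.23, with 4 of 10 higher and 2 lower in both TCDD arrays (12.9% and 12.0% of all genes). The part of these shifts in the values of the EGR and NR4A genes was not tested.

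The genes whose pattern over the 4 arrays was most like Egr1 and Nr4a1 were Rhob, Fosb, Dusp1 and Ifng. Likeness was the Euclidean distance between values centred on each gene's own mean, searched over 7384 genes above the median level. It was computed only for members above that level that spanned at least 1 log2 unit. Rhob, a small GTPase gene that growth factors and stress induce early, was nearest to Egr1 at a distance of 0.269. TCDD arrays read 7.03 and 5.95, and DMSO arrays 8.57 and 6.81. Fosb, a subunit of AP-1, followed at 0.356, and Dusp1, a MAP kinase phosphatase, at 0.526. Nr4a1 lay at 0.496 from Egr1, nearer than Dusp1. For Nr4a1 the nearest genes outside the family lists were Rhob at 0.56, Fosb at 0.781 and the interferon-gamma gene Ifng at 0.783. These distances rest on 4 arrays and are a description.

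**Figure D4:**
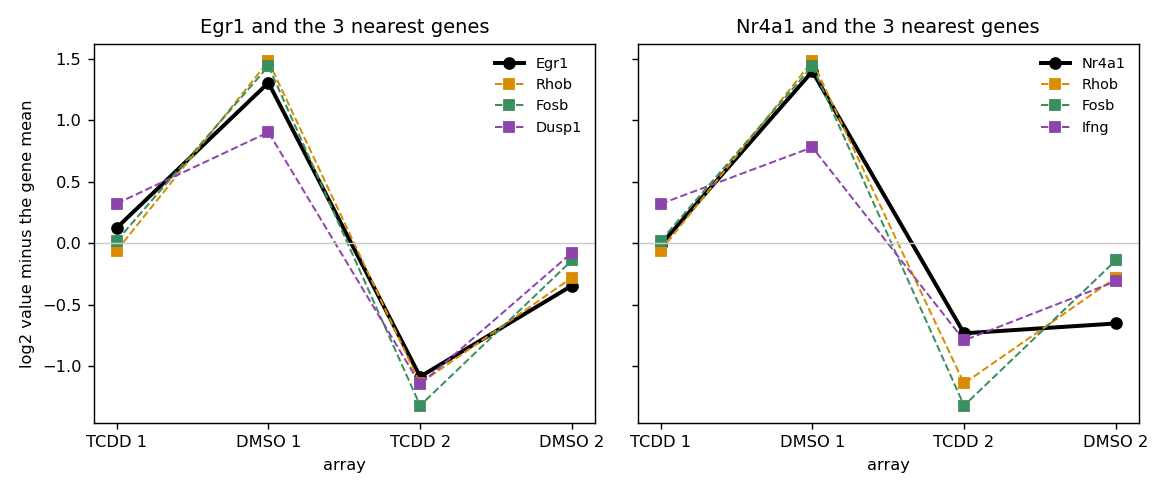
Log2 values of Egr1 (left) and Nr4a1 (right), in black, and of their 3 nearest genes by array, each minus the gene's own mean over the 4 arrays. All curves peak in DMSO replicate 1, and every gene shown is below its own mean in both arrays numbered 2.

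Other immediate early genes shared the split by number. Of 29 measured genes, 26 were above 0 in number 1 minus number 2 and 19 were higher in both arrays numbered 1, against 14.0% of all genes. The median difference was 1.07, against −0.035 over all genes. The list was chosen with earlier results of these data known, so these counts describe it and test nothing. Rgs1, which encodes a regulator of G protein signalling, was the 1 gene that passed limma (adjusted p = 0.01768). It measured 9.94 in both TCDD replicate 1 and DMSO replicate 1, and 6.56 and 6.68 in TCDD and DMSO replicate 2. No probe set passed with any 1 array left out or with treatment as a block. The bZIP gene Maff differed by 2.81 and Klf10, a Krüppel-like factor gene of TGF-beta responses, by 2.51, without passing. Fos did not follow this split, with a number difference of 0.175 that overlapped. Its treatments were fully separate, which forces overlap by number.

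By treatment the same list had a median of −0.07, with 7 of 29 members lower and 2 higher in both TCDD arrays, where 12.0% of all genes were lower and 12.9% higher. Fos, the partner of Jun in AP-1, read 10.51 and 10.13 with TCDD and 12.0 and 12.03 with DMSO. Its difference of −1.695 and that of Jun, −1.25, came with treatments that did not overlap, unlike Egr1 and Nr4a1, and neither passed limma (adjusted p = 0.9973). The list's median was −0.825 without TCDD replicate 1 and −0.765 without DMSO replicate 2, and turned to 0.36 without TCDD replicate 2 and to 0.29 without DMSO replicate 1. Part of this list's gap by number enters each of these values.

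Genes upstream of the EGR and NR4A families had medians near 0 in both comparisons. Of 24 measured signalling and transcription factor genes, 2 were higher and 1 lower in both TCDD arrays (12.9% and 12.0% of all genes), with a median treatment difference of −0.04 and 0 called by limma. By number 7 were higher and 1 lower (14.0% and 22.4% of all genes), with a median of 0.075. Crem, a CREB family gene whose inducible product ICER represses cAMP responses, read 7.73 and 6.24 with TCDD and 6.55 and 6.38 with DMSO. TCDD replicate 1 stood above the other 3 arrays. The calcineurin gene Ppp3cb differed by −0.585 and the ERK kinase gene Map2k1 by −0.36 between treatments, both with overlap. Srf, the factor that binds the CArG box, read 7.76 and 7.65 with TCDD and 7.66 and 7.97 with DMSO.

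Partners and corepressors were likewise near 0, with medians of −0.045 by treatment and −0.005 by number over 13 measured genes and 0 called in either comparison. The histone deacetylase gene Hdac1 was higher in both TCDD arrays (0.465) and Hdac2 lower (−0.43). For Hdac2 TCDD minus DMSO was −0.01 between the arrays numbered 1 and −0.85 between those numbered 2. Nab2, which encodes an EGR corepressor that EGR proteins themselves induce, was lower in both arrays numbered 1 by 0.245, at 6.27 and 6.45, against 6.61 and 6.60 in those numbered 2. Rxrb, a nuclear receptor gene of the RXR group with which Nr4a1 and Nr4a2 proteins can pair, differed by −0.315 in the same direction. Egr4, the remaining EGR gene, stayed between 6.30 and 6.39 on all arrays.

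Genes known as EGR or NR4A targets in T cells went both ways. Of 24 measured, 5 were higher and 6 lower in both arrays numbered 1 (14.0% and 22.4% of all genes), with a median of −0.06 and a mean of 0.092. By treatment 1 was higher and 5 lower in both TCDD arrays (12.9% and 12.0% of all genes), with a median of −0.05. The diacylglycerol kinase gene Dgka, which EGR proteins are known to induce in anergy, read 10.56 and 10.60 with TCDD and 11.11 and 10.79 with DMSO, without overlap. The quiescence factor gene Klf2 differed by −1.17 between treatments. Id3, an inhibitor of E proteins and a known EGR target, and the proapoptotic gene Bcl2l11 were lower in both arrays numbered 1, by 0.665 and 0.62. Irf4 (1.54), the checkpoint receptor gene Havcr2 (0.71), the cell cycle inhibitor gene Cdkn1a (0.52) and the death ligand gene Fasl (0.435) were higher in both arrays numbered 1. Limma called 0 members of this list in either comparison.

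Of 20 measured surface and cytokine genes of activation, 10 were higher and 1 lower in both arrays numbered 1, against 14.0% and 22.4% of all genes, with a median of 0.12 and 0 called by limma. The surface glycoprotein gene Cd83 differed by 1.93, at 8.02 and 7.82 in the arrays numbered 1 and 5.73 and 6.25 in those numbered 2. Slc3a2, the heavy chain of amino acid transporters, differed by 1.155 and Ifng by 1.1. By treatment the median was 0.02 and the mean −0.038, with 1 higher and 4 lower in both TCDD arrays (12.9% and 12.0% of all genes), among them Myc at −0.52 and the chemokine gene Ccl3 at −0.41.

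**Figure D5:**
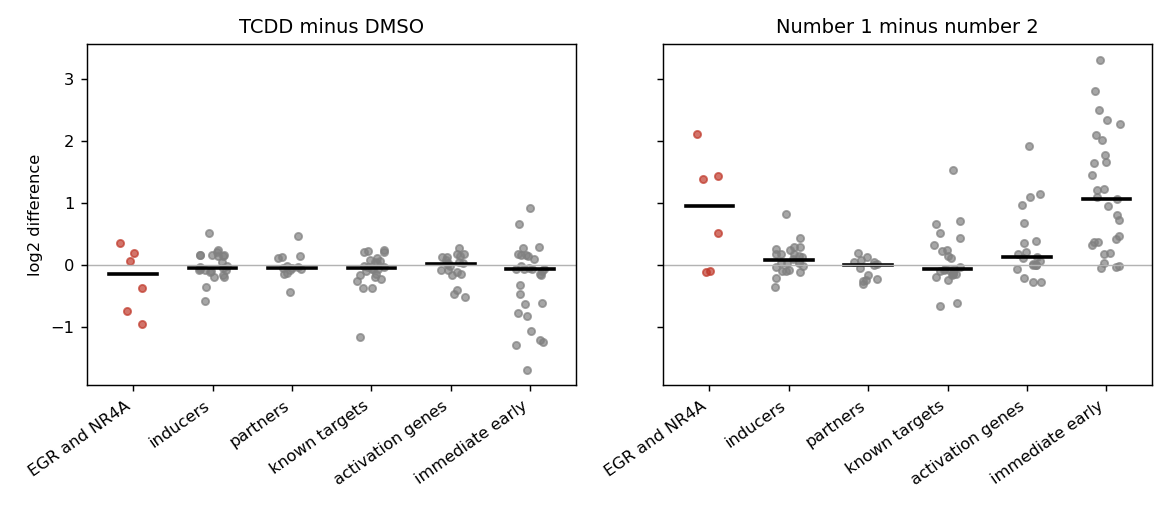
Log2 differences of the 6 EGR and NR4A genes (red) and of the members of 5 gene lists (grey), with black bars for the medians, TCDD minus DMSO on the left and number 1 minus number 2 on the right. The EGR and NR4A genes and the other immediate early genes have medians of 0.95 and 1.07 on the right, while the other 4 lists stay between −0.06 and 0.12. Genes and lists were chosen with earlier results of these data known.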

How the data were processed

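Gene expression was measured in splenic CD8 T cells on 4 Affymetrix arrays, 2 after TCDD and 2 after DMSO. The deposited log2 values come from RMA as run by the authors, per the submitters' processing notes; its version and settings are not given in the sources used here. RMA shrinks differences at low signal. With 4 arrays, precision is limited by their number. Of 22690 probe sets, 64 controls were left out of the tests. Gene symbols come from the platform annotation, updated by Entrez identifier to RefSeq (GRCm38.p6), for 20380 probe sets with 1 symbol; 691 had several and 1555 were unnamed here. TCDD was compared with DMSO, and title number 1 with number 2, using limma 3.58.1 in R 4.3.3 (lmFit, eBayes, no covariate), Benjamini-Hochberg adjusted across the 22626 tested, at a threshold of 0.05. The fit was also run on simulated arrays, which held no split by number in the treatment comparison. That run does not show how the fit behaves with such a split. Members and gene lists were chosen with earlier results of these data known. The rule for naming list genes took up to 3 members above the median level with the largest differences in each comparison, and other list genes named (Fos by number, Srf, Egr4, Irf4, Havcr2, Cdkn1a, Fasl, S100a9) were chosen after their values were seen. Alternatives were centring, quantile normalisation, a filter on dim probe sets, a variance trend with robust fitting, a block, other probe set rules and each array left out.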

Additional observations from a re-analysis of the deposited data

How the results depend on the processing

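No treatment call was made under any alternative run. By number, 1 probe set passed in the main setting, 11 with a variance trend and robust fitting, 0 with treatment as a block, and 0 with any array left out. Nr4a2 passed by number only with the trend (2.115, adjusted p = 0.03866). It has no value with the filter at the median level, since its probe sets lie below it. It also has none in the setting meant to leave out cross hybridisation marks. That setting kept only names of digits followed by _at, and both Nr4a2 names end in _a_at. Their removal is therefore no sign that they cross hybridise. Of 80 member values under settings with all arrays, 1 turned its sign, Nr4a3 by treatment as the mean of its probe sets (−0.002). Many of the 80 could not turn. The trend, block, filter and name settings leave the mean difference of a main probe set as it is. So does the mean of probe sets for Egr1, Egr3 and Nr4a1, which have 1 probe set each. With arrays left out, 5 of 48 turned. The treatment differences ranged from −1.785 to −0.135 for Egr1, −0.67 to −0.07 for Egr2, 0.04 to 0.35 for Egr3, −1.77 to 0.28 for Nr4a1, −0.755 to 1.465 for Nr4a2 and −0.025 to 0.165 for Nr4a3. By number the ranges were 0.84 to 2.02 for Egr1, 0.295 to 0.745 for Egr2, −0.30 to 0.11 for Egr3, 0.68 to 2.09 for Nr4a1, 1.885 to 2.345 for Nr4a2 and −0.185 to −0.035 for Nr4a3. Leaving out 1 array makes the numbers unequal between the treatments. Part of any gap by number then enters a treatment difference, and part of any treatment gap enters a difference by number. How much of these ranges comes from that was not tested. A direction that groups without overlap fix cannot turn when an array is left out.

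The arrays share only a number, and over 22626 probe sets the deviations of same-numbered arrays from their group means correlated at 0.234. With the replicate block, which leaves each mean difference as it is by construction (−0.96 for Egr1), 0 probe sets passed by treatment (limma adjusted p = 0.9942 for all 6 members). Unadjusted limma p values were 0.006704 for Egr1, 0.0377 for Egr2 and 0.04862 for Nr4a2, against 0.2155, 0.2189 and 0.7322 without the block. Over the array 612 probe sets had an unadjusted p under 0.05 with it, against 439 without.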

Other observations

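Some genes that T cell receptor signals are known to induce, among them Irf4 of the target list, showed the same split by number, and were chosen after their values were seen. Irf4, a transcription factor gene that scales with receptor signal strength, measured 6.90 and 6.66 in TCDD and DMSO replicate 1, and 5.23 and 5.25 in TCDD and DMSO replicate 2. In the arrays numbered 2 it thus lay below the median level of 6.01. The inhibitory receptor gene Ctla4 measured 9.28 and 8.70 in the arrays numbered 1 and 6.07 and 6.46 in those numbered 2. Neither passed limma (adjusted p = 0.1624 for Irf4 and 0.1677 for Ctla4). Tnfrsf9, which encodes the costimulatory receptor 4-1BB, and Nr4a3 did not show this split, with Tnfrsf9 at 7.11 and 7.32 in the arrays numbered 1 and 7.36 and 7.23 in those numbered 2. Whether flat values at this level are expression or background was not tested. Of 20 surface and cytokine genes of activation, 10 were higher and 1 lower in number 1 (14.0% and 22.4% of all genes). The other 9 overlapped, among them Il2ra, Tnf, Tnfrsf4 and Myc.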
